A study of Mus musculus with 6 samples.

Results

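Transcripts of the interferon receptors and of the JAK-STAT pathway were examined in heart ventricle tissue of 3 Trex1 KO and 3 Trex1 WT mice. The genes were chosen by symbol, as the 9 genes Ifnar1, Ifnar2, Ifngr1, Ifngr2, Jak1, Jak2, Tyk2, Stat2 and Socs1, and every probe set annotated to one of these symbols was taken. They had 18 probe sets of the 45037 on the array that were not controls, and were 9 of 18193 genes with a probe set of their own. All 6 animals carried the RAG2KO background, so the Trex1 WT animals lacked Rag2 as the Trex1 KO animals did. The animals were 3 pairs of littermates, A, B and C, with 1 Trex1 KO and 1 Trex1 WT mouse in each, and 1 array was hybridised per mouse. The sources used here do not give the age or strain of the animals or say how Trex1 was inactivated. The Trex1 protein is an exonuclease that clears DNA from the cytosol, and mice without Rag2 form no mature T or B lymphocytes.

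Type I interferons bind a receptor made of the Ifnar1 and Ifnar2 chains, and interferon gamma binds a receptor made of Ifngr1 and Ifngr2. The Janus kinases Tyk2 and Jak1 are attached to the type I receptor and Jak1 and Jak2 to the interferon gamma receptor. On binding, these kinases phosphorylate the receptor and then STAT proteins. Behind the type I receptor, phosphorylated Stat2 enters the nucleus in a complex with Irf9 that binds interferon-stimulated response elements, while interferon gamma acts through gamma-activated sites. Socs1 binds the kinases and ends the signal. The pathway is known for acting through phosphorylation of proteins that are already present, which an array of transcripts does not measure.

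The labels and the tissue were checked first. The probe set of the targeted gene, which is annotated to both Trex1 and its neighbour Atrip, had signals of 9.45, 20.6 and 34.2 in the Trex1 KO hearts of litters A to C, and of 714, 340 and 887 in their Trex1 WT littermates (adjusted p = 0.00109, limma). Without pair A its adjusted p was 0.0756. Ventricular cardiomyocyte markers were all above the highest signal of the Bacillus control probe sets, which was 69.8, and their summed signals were 319047 to 352827 in Trex1 KO hearts and 290587 to 370178 in Trex1 WT hearts. Of 7 markers of T and B lymphocytes, 6 had mean signals below that control, namely Cd3e, Cd3d, Cd4, Cd79a, Cd79b and Ms4a1. The sum over 8 leukocyte and macrophage markers was 14161 to 19163 in Trex1 KO hearts and 11532 to 18738 in Trex1 WT hearts, and 0 of the 8 passed the test. Of these 8, 7 had a positive log2 difference and 1 a negative one, with a median of 0.22 against -0.02 over all tested genes. With the littermate pair as a replicate block, 3 of the 8 were higher at an unadjusted p under 0.05 (limma), where 565 of 12811 tested genes were. The sum over 3 markers of natural killer cells, which do not need Rag2, was 217 to 458 in Trex1 KO hearts and 175 to 208 in Trex1 WT hearts, with the mean of their defining receptor Ncr1 below the control. Of the 3, 2 had a positive log2 difference and 1 a negative one. In 0 of the 3 did all Trex1 KO arrays lie above all Trex1 WT arrays, where 5.57% of all tested probe sets did. Of 6 endothelial markers, 2 were lower on all 3 Trex1 KO arrays than on all 3 Trex1 WT arrays, where 4.99% of all tested probe sets were. Their sum was 8161 to 9563 in Trex1 KO hearts and 8455 to 11999 in Trex1 WT hearts, which overlapped. The sum over 2 adipose markers was 69.4 to 579 in Trex1 KO hearts and 31.2 to 86.4 in Trex1 WT hearts, with Lep below the control, and 0 markers of these lists passed the test. The Actb 3′ to 5′ ratio, a measure of RNA integrity, was 1.66, 1.60 and 1.68 in the Trex1 KO hearts and 2.09, 2.29 and 1.80 in the Trex1 WT hearts, which did not overlap. The exact two-sided permutation p was 0.1, the smallest that 3 against 3 arrays allow. A fit with this ratio as a covariate can therefore separate its part from that of genotype only poorly. The signal of 18S ribosomal RNA was 2834, 1907 and 798 in the Trex1 KO hearts and 12811, 13708 and 924 in the Trex1 WT hearts (exact permutation p = 0.3), high in Trex1 WT A and B.

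Of the 9 genes, none of the 8 that could be tested passed the test in either direction. Of their 18 probe sets, 17 were bright enough to be tested, and the 1 of Socs1 was not. At an adjusted p under 0.05 (limma on log2(signal + 16), Benjamini-Hochberg over all 27022 tested probe sets), 0 of the 17 were higher and 0 were lower in Trex1 KO hearts, where 0.218% of all tested probe sets were called higher and 0.0259% lower. With the littermate pair as a replicate block the counts were again 0 and 0, against 0.389% and 0.0592% of all tested probe sets. At an unadjusted p under 0.05 there were 2 of the 17, both of Stat2, where 5.44% of all tested probe sets passed, and with the block there were 3, where 8.26% of all tested probe sets passed. All 3 Trex1 KO arrays lay above all 3 Trex1 WT arrays in 3 of the 17 probe sets, where 5.57% of all tested probe sets did, and below them in 0, where 4.99% did. The 3 were both Stat2 probe sets and 1 of Jak2. By the brightest probe set of each gene, 6 of the 8 tested genes had a positive difference and 2 a negative one, with a median log2 difference, Trex1 KO minus Trex1 WT, of 0.07 against a median of -0.02 over all tested genes. These medians come from single values per gene and were not tested.

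The chains of the type I receptor gave no difference beyond the spread between arrays. Ifnar1, the chain that carries Tyk2, had signals of 459, 463 and 369 in the Trex1 KO hearts of litters A to C, and of 492, 385 and 498 in their Trex1 WT littermates with its brightest probe set (1449026_at). The groups overlapped, and the highest and lowest arrays were a Trex1 WT and a Trex1 KO heart of the same litter, C. The means were 430 ± 53.3 in Trex1 KO hearts and 458 ± 63.3 in Trex1 WT hearts (SD, n = 3 each), a fold of 0.94 with a 95% interval of 0.73 to 1.22. The second Ifnar1 probe set (1442222_at) had signals of 233, 170 and 182 in Trex1 KO hearts and of 177, 147 and 247 in Trex1 WT hearts, again with overlap. Both Ifnar1 probe sets had a negative difference in pair C and a positive one in pair B, so the litters did not share a direction.

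Ifnar2, the chain that carries Jak1, had signals of 1469, 1482 and 1397 in Trex1 KO hearts and of 1363, 1638 and 1221 in Trex1 WT hearts with its brightest probe set (1451462_a_at). The Trex1 KO signals lay within the range of the Trex1 WT signals, and the log2 difference was 0.05 with an interval of -0.23 to 0.33. The second probe set (1427691_a_at) had 242, 324 and 360 in Trex1 KO hearts and 280, 482 and 318 in Trex1 WT hearts. The third (1440169_x_at), of a class of probe sets that can cross-hybridise to other transcripts, had 99.0, 200 and 151 in Trex1 KO hearts and 191, 217 and 176 in Trex1 WT hearts. It was lower in the Trex1 KO animal of all 3 pairs, by log2 differences of -0.85 in A, -0.10 in B and -0.20 in C. Its groups overlapped, its interval was -0.96 to 0.19, and the brightest Ifnar2 probe set did not share that direction in pairs A and C. Its log2 difference of -0.39 was -0.14 without Trex1 KO A and -0.60 without Trex1 KO B.

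The promoters of both type I receptor genes held the letters of a gamma-activated site, searched as TTCNNNGAA on both strands within 250 bases before to 50 after the annotated start. This sequence reads in the same form on both strands, so each match counts once. It occurred in 8.30% of 32851 promoters and in 2 of the 9 described here. The matched letters are shown in capitals in the 30 bases around them, from RefSeq on the build GRCm38.p6, because these are the promoters of the 2 chains that the results set side by side.
Ifnar1, chr16:91485200-91485229, plus strand: ggcgggggcgTTCACGGAAggggcggggcg
Ifnar2, chr16:91372559-91372588, plus strand: tgccaaggccTTCCTGGAAgaagagagtac
The Ifnar1 match spanned the start, from base -5 to base 4, and the Ifnar2 match lay at -214 to -206. A match of letters is a description of the window and does not show that a factor binds there.

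The interferon gamma receptor chains were likewise within their spread. Ifngr1, the ligand-binding chain, had signals of 910, 1200.0 and 1048 in the Trex1 KO hearts of litters A to C, and of 999.9, 1246 and 936 in their Trex1 WT littermates. Its log2 difference was -0.01 with an interval of -0.34 to 0.32, and litter B was the highest in both genotypes. Ifngr2, the chain that carries Jak2, had signals of 2995, 3212 and 3036 in Trex1 KO hearts and of 2752, 2637 and 3201 in Trex1 WT hearts (1423557_at), with means of 3081 ± 115 in Trex1 KO hearts and 2863 ± 298 in Trex1 WT hearts (SD, n = 3 each). Its second probe set (1423558_at) had 426, 801 and 698 in Trex1 KO hearts and 837, 686 and 871 in Trex1 WT hearts. The probe sets of Ifngr2 differed in sign, with log2 differences of 0.11 (interval -0.13 to 0.35) and -0.35 (interval -0.83 to 0.13), and the groups overlapped in each. Without Trex1 KO A the difference of 1423558_at was -0.085. Both differences were negative, at -0.16 and -0.70, once the Actb ratio, which did not overlap between the genotypes, entered as a covariate.

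The genes Ifnar2, Il10rb, Ifnar1 and Ifngr2 follow one another as neighbouring coding genes on chromosome 16. Il10rb encodes a chain shared by the receptors of interleukin 10 and interferon lambda and is named here for its place between them. Its signals were 6718, 5964 and 5948 in Trex1 KO hearts and 6491, 6465 and 6819 in Trex1 WT hearts. The log2 difference of Il10rb was -0.09 with an interval of -0.30 to 0.12, and its groups overlapped like those of its 3 neighbours.

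**Figure D1:**
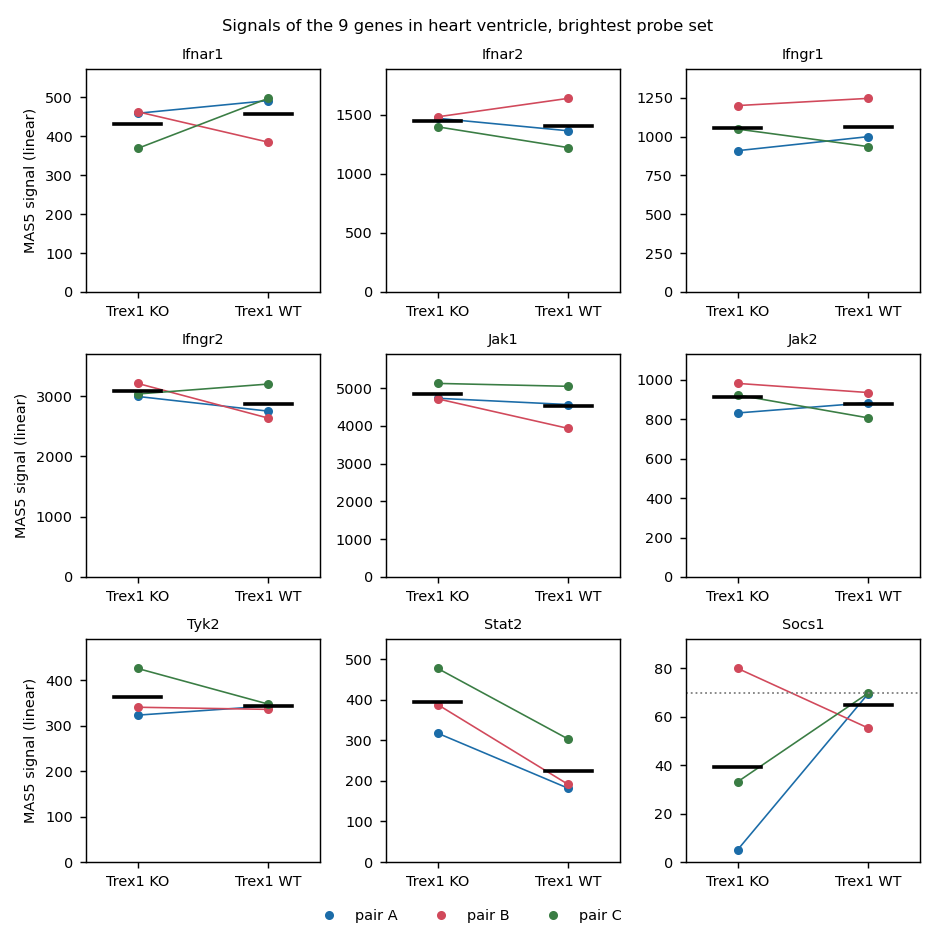
Signal of the brightest probe set of each of the 9 genes on each array, on linear axes of MAS5 signal, with Trex1 KO left of Trex1 WT, a line joining littermates and the dotted line of the Socs1 panel at the highest Bacillus control signal (69.8). The Stat2 signals of the 3 Trex1 KO hearts, 317 to 477, all lie above the Trex1 WT signals, 182 to 303, and the groups overlap in the other panels.

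Each Janus kinase was measured by 2 or 3 probe sets and none passed the test. Jak1, the kinase shared by both interferon receptors, had signals of 4734, 4719 and 5128 in the Trex1 KO hearts of litters A to C, and of 4568, 3936 and 5051 in their Trex1 WT littermates (1433805_at). The Trex1 KO animal was the higher one in every pair, by log2 differences of 0.05, 0.26 and 0.02, while the groups overlapped. The probe set 1433804_at had 310, 316 and 443 in Trex1 KO hearts and 228, 230 and 353 in Trex1 WT hearts. Here litter C was the highest of both genotypes, and the Trex1 KO animal was higher than its littermate by 0.41, 0.43 and 0.31 in A, B and C. Its log2 difference of 0.39 (interval -0.10 to 0.88) had an unadjusted p of 0.109, and 0.0319 with the replicate block, whose adjusted p was 0.545 (limma). The log2 difference was -0.093, of the opposite sign, once the Actb ratio, which did not overlap between the genotypes, entered as a covariate. The remaining Jak1 probe set (1433803_at) ran the other way in all 3 pairs, with 749, 901 and 853 in Trex1 KO hearts and 773, 933 and 901 in Trex1 WT hearts, a log2 difference of -0.06.

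Jak2, the kinase of the Ifngr2 chain, had signals of 832, 982 and 923 in Trex1 KO hearts and of 884, 936 and 807 in Trex1 WT hearts with its brightest probe set (1421066_at). With its other probe set (1421065_at) the signals were 420.0, 430.3 and 448 in Trex1 KO hearts and 393, 412 and 414 in Trex1 WT hearts. Here all 3 Trex1 KO signals lay above all 3 Trex1 WT signals, and the nearest arrays were 420.0 in Trex1 KO A and 414 in Trex1 WT C. The means there were 433 ± 14.0 in Trex1 KO hearts and 406 ± 11.8 in Trex1 WT hearts (SD, n = 3 each), a fold of 1.06, with an adjusted p of 0.972 (limma).

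Tyk2, the kinase of the Ifnar1 chain, had signals of 323, 341 and 426 in Trex1 KO hearts and of 344, 336 and 348 in Trex1 WT hearts (1417306_at). The 3 Trex1 WT signals lay close together (343 ± 5.89) and the Trex1 KO signals were more spread (364 ± 55.0, SD, n = 3 each) with the Trex1 KO heart of litter C the highest. The other Tyk2 probe set (1432576_at) had 210, 259.1 and 258.9 in Trex1 KO hearts and 152, 210 and 206 in Trex1 WT hearts. It was higher in the Trex1 KO animal of every pair, by 0.42, 0.28 and 0.31, with a log2 difference of 0.34, an interval of -0.11 to 0.79 and an adjusted p of 0.955 (limma). Tyk2 lies on chromosome 9, as Trex1 does, with 886 coding genes between them in the RefSeq gene order.

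**Figure D2:**
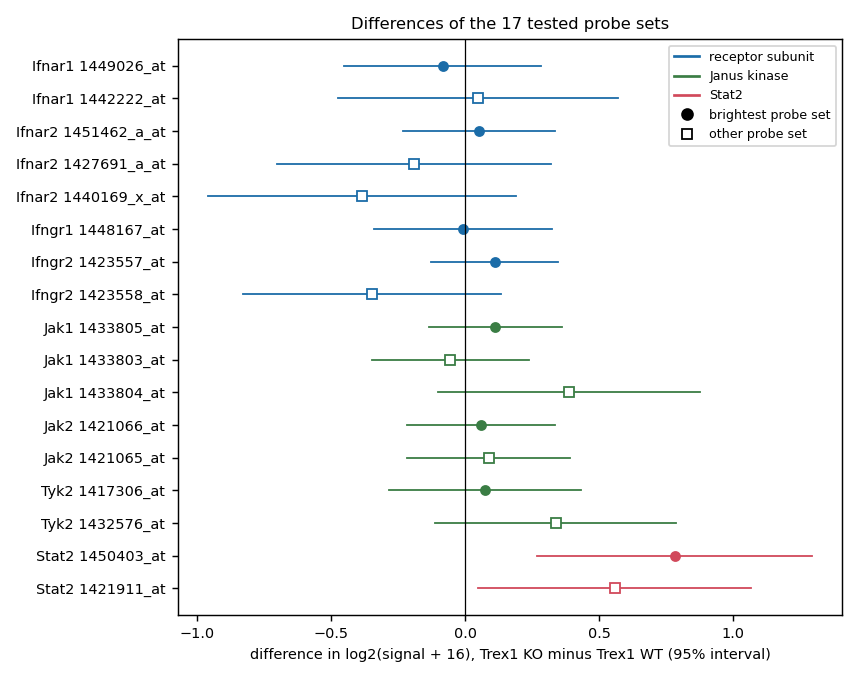
Difference in log2(signal + 16), Trex1 KO minus Trex1 WT, of the 17 tested probe sets with 95% intervals from limma, where filled circles mark the brightest probe set of a gene and open squares the others. The intervals of both Stat2 probe sets lie above 0 before adjustment for the number of probe sets, at 0.27 to 1.29 and 0.05 to 1.07, and those of the other 15 include 0.

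Stat2 had the largest differences among the 17 probe sets, and they did not pass the test. Its brightest probe set (1450403_at) had signals of 317, 388 and 477 in the Trex1 KO hearts of litters A to C, and of 182, 191 and 303 in their Trex1 WT littermates. The lowest Trex1 KO heart lay above the highest Trex1 WT heart, and litter C was the highest of both genotypes. The means were 394 ± 80.0 in Trex1 KO hearts and 225 ± 67.5 in Trex1 WT hearts (SD, n = 3 each), a fold of 1.72 with an interval of 1.20 to 2.45. The log2 difference was 0.78 ± 0.23 (SE), with an unadjusted p of 0.00684 and an adjusted p of 0.613 (limma), and 301 probe sets had an unadjusted p at most this low. Within pairs the differences were 0.75, 0.96 and 0.63, and the adjusted p with the replicate block was 0.128.

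The other Stat2 probe set (1421911_at) had signals of 329, 286 and 185 in Trex1 KO hearts and of 165, 167 and 183 in Trex1 WT hearts. Again the Trex1 KO signals lay above the Trex1 WT signals, but by little in pair C, where the log2 difference was 0.02 against 0.93 in A and 0.72 in B. The order of the litters was thus not the same in the 2 probe sets: among the Trex1 KO hearts, C was the highest with one and the lowest with the other. The log2 difference was 0.56 ± 0.23 (SE), a fold of 1.47, with an adjusted p of 0.890 (limma) and of 0.555 with the block. The exact two-sided permutation p was 0.1 for each Stat2 probe set, the smallest possible with 3 against 3 arrays. With the Actb 3′ to 5′ ratio as a covariate, the log2 differences were 0.22 for 1450403_at and 0.38 for 1421911_at, with adjusted p-values of 0.940 and 0.911 (limma). That ratio did not overlap between the genotypes, so its part in the Stat2 differences and that of genotype cannot be told apart here. In whole tissue, a change in the number of cells of a type and a change in RNA per cell cannot be told apart. The summed signals of the natural killer cell markers did not overlap between the genotypes, while the groups overlapped in each single marker. The part of these markers in the Stat2 difference was not tested. Nor was that of the leukocyte and macrophage markers, of which 7 of 8 had a positive difference. The 2 arrays with the highest 18S signal, Trex1 WT A and B, were also those with the lowest signals of both Stat2 probe sets. A link between the 18S signal and the Stat2 differences was not tested. In pair C, where both 18S signals were low, the Stat2 differences were 0.63 with 1450403_at and 0.02 with 1421911_at.

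The promoter of Stat2 held the core letters of an interferon-stimulated response element, searched on both strands as GAAA, any 2 bases, then GAAA. This core occurred in 3.44% of the 32851 promoters and in 2 of the 9 described here, those of Stat2 and Socs1. The 250 bases before the start of each are shown with the matched letters in capitals, since these are the gene with the largest difference among the 8 tested and an inhibitor of the pathway.
Stat2, GRCm38.p6 chr10:128270248-128270497, plus strand: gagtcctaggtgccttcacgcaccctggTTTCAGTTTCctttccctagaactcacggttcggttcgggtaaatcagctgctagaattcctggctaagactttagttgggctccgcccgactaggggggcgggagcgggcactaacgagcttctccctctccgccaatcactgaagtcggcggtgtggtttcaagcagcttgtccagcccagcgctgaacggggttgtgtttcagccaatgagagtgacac
Socs1, GRCm38.p6 chr16:10785537-10785786, minus strand: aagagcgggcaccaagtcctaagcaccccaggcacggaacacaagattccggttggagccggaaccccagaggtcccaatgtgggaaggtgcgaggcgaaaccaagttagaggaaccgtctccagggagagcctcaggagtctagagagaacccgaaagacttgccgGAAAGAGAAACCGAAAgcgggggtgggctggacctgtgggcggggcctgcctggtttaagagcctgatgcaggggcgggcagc
In Stat2 the match lay on the strand opposite to the gene at -222 to -213 from the start. In Socs1 a pair of matches on the strand of the gene, at -83 to -74 and -77 to -68, shared 4 bases. Irf9 and Nmi had a promoter in the table without a match in the window.

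Socs1, the inhibitor that is itself a known interferon target, was at the level of the background. Its probe set had signals of 5.1, 79.9 and 33.2 in the Trex1 KO hearts of litters A to C, and of 69.5, 55.3 and 69.7 in their Trex1 WT littermates. Only the Trex1 KO heart of litter B lay above the highest Bacillus control signal of 69.8, and the within-pair log2 differences were -2.02, 0.43 and -0.80. Socs1 was not tested in the main comparison because its mean lay below the limit on dim probe sets. Without that limit its log2 difference was -0.80 with an interval of -1.99 to 0.39 and an adjusted p of 0.963 (limma). No difference was detected, and a small difference or a fall was not detectable at this signal.

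The litters differed in how the 8 tested genes lay. The median log2 difference of their brightest probe sets was -0.02 in pair A, 0.16 in pair B and 0.18 in pair C, and over all tested genes it was -0.02, -0.04 and -0.003. Of the 17 probe sets, 6 were higher in the Trex1 KO animal of all 3 pairs and 2 were lower, where 14.2% of all tested probe sets were higher and 15.3% lower in this way. The 6 were 2 of Jak1, 1 of Jak2, 1 of Tyk2 and both of Stat2. The spread of these genes between arrays of 1 genotype was not wide: the within-group SD of log2(signal + 16) had a median of 0.15, with a range of 0.11 to 0.34, against 0.20 over all tested genes. The 95% interval of the difference reached a median of 0.31 to either side on the log2 scale.

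Of 52 other genes of the pathway with a probe set of their own, 42 were tested, and Usp18 was the 1 that rose while 0 fell, both without and with the replicate block. Over all 12811 tested genes, 0.312% were called higher and 0.039% lower, or 0.531% and 0.0937% with the block. Usp18 binds Ifnar2, displaces Jak1 and removes the ubiquitin-like modifier Isg15 from proteins. Its signals were 5940, 7253 and 6786 in the Trex1 KO hearts of litters A to C, and 519, 772 and 660 in their Trex1 WT littermates. Each Trex1 KO heart lay far above every Trex1 WT heart, with a log2 difference of 3.34 ± 0.15 (SE), a fold of 10.1 and an adjusted p of 6.54e-06 (limma). The within-pair differences were 3.48, 3.20 and 3.33, so the litters moved by nearly the same amount. Its log2 difference was 3.43 when the Actb ratio was added as a covariate, with an adjusted p of 0.00323 (limma). Over the 42 genes, 26 had a positive difference and 16 a negative one, with a median of 0.02. Their 58 further probe sets gave 0 calls.

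**Figure D3:**
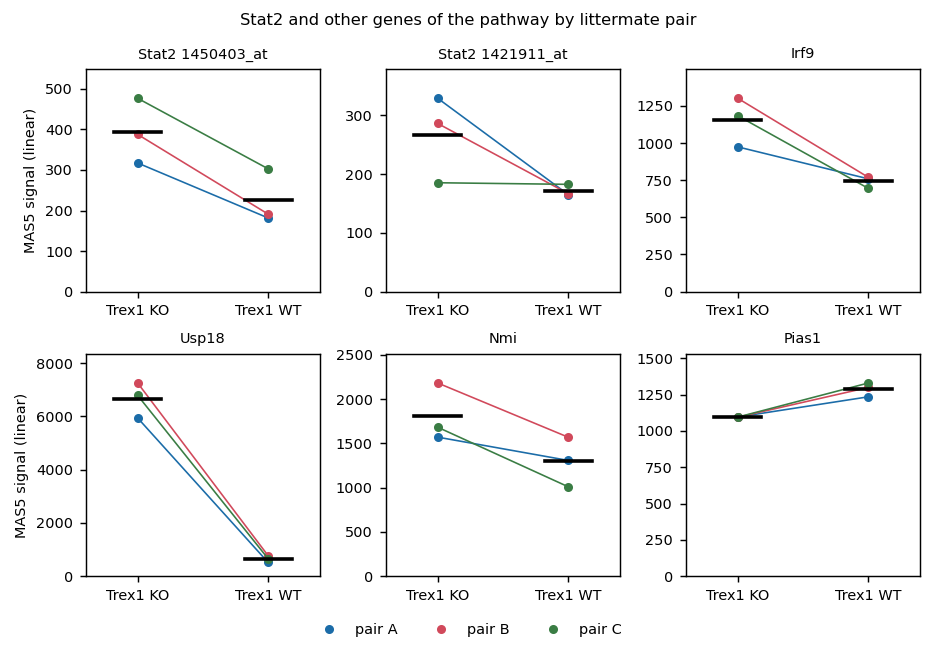
MAS5 signal on linear axes of both Stat2 probe sets and of Irf9, Usp18, Nmi and Pias1 on each array, with Trex1 KO left of Trex1 WT, lines joining littermates and black bars at the group means. Usp18 averages 6660 ± 666 in Trex1 KO hearts and 650 ± 127 in Trex1 WT hearts (SD, n = 3 each), and the 3 Pias1 signals of Trex1 KO hearts lie on one another.

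Irf9, the DNA-binding partner of Stat2, had the next smallest p among genes with a positive difference. Its signals were 974, 1301 and 1184 in the Trex1 KO hearts of litters A to C, and 759, 770 and 695 in their Trex1 WT littermates. The groups did not overlap, and the means were 1153 ± 166 in Trex1 KO hearts and 741 ± 40.4 in Trex1 WT hearts (SD, n = 3 each), a fold of 1.53. The log2 difference of 0.62 ± 0.14 (SE) had an adjusted p of 0.222, and of 0.0988 with the replicate block (limma), so Irf9 did not pass. The within-pair differences were 0.35, 0.75 and 0.75. Nmi, a protein that binds STAT factors, is named after its value was seen. It had 1571, 2182 and 1682 in Trex1 KO hearts and 1308, 1570 and 1011 in Trex1 WT hearts. Its log2 difference of 0.49 had an adjusted p of 0.803, and of 0.195 with the replicate block (limma), so Nmi did not pass. It was higher in the Trex1 KO animal of every pair, by 0.26, 0.47 and 0.73. Its groups were apart only by the nearest arrays, at 1570.7 in a Trex1 KO heart and 1570.3 in a Trex1 WT heart.

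Among the other STAT genes and Irf9, 0 of 5 tested genes passed, with a median log2 difference of 0.04. Stat3, the factor behind interleukin 6 receptors, had 4644, 5861 and 4600 in Trex1 KO hearts and 4641, 4795 and 5219 in Trex1 WT hearts. Jak3 and the other cytokine receptor chains gave 0 of 9, with a median of 0.04. Jak3, the kinase of the receptors that share the Il2rg chain, is named after its value was seen, with 248, 217 and 251 in Trex1 KO hearts and 151, 182 and 204 in Trex1 WT hearts. Those groups did not overlap and the adjusted p was 0.949 (limma).

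The SOCS, PIAS and phosphatase lists gave no call. Of 7 tested members of the SOCS family, which bind kinases and receptors, 2 had a positive and 5 a negative difference, with a median of -0.06. Socs3, the inhibitor of interleukin 6 signalling, had 253, 439 and 262 in Trex1 KO hearts and 334, 275 and 203 in Trex1 WT hearts. Socs6 had 785, 409 and 513 in Trex1 KO hearts and 800.2, 634 and 760.3 in Trex1 WT hearts, with a log2 difference of -0.40 and an adjusted p of 0.955 (limma), and its further probe sets gave 0.18 and -0.21. On the list of PIAS genes, phosphatases and the adaptor gene Sh2b3, 0 of 10 tested genes passed, with a median of 0.03. Pias1, a SUMO ligase that binds STAT proteins, had 1095.3, 1094.1 and 1094.7 in Trex1 KO hearts and 1234, 1298 and 1329 in Trex1 WT hearts. The Trex1 KO signals of Pias1 were nearly identical and all below the Trex1 WT signals, with a log2 difference of -0.23 and an adjusted p of 0.924 (limma), and its further probe sets gave 0.03, -0.50 and -0.12.

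The interferon genes themselves gave little signal. Of 10 with a probe set of their own, 2 were bright enough to be tested and 0 passed. Ifnb1, the gene of interferon beta, had 78.0, 61.4 and 85.2 in Trex1 KO hearts and 63.7, 62.4 and 101 in Trex1 WT hearts, which lies close to the highest Bacillus control signal. The log2 difference of Ifnb1 was 0.004 with an interval of -0.68 to 0.68. A small difference or a fall at this signal was not detectable with 3 arrays a group.

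**Figure D4:**
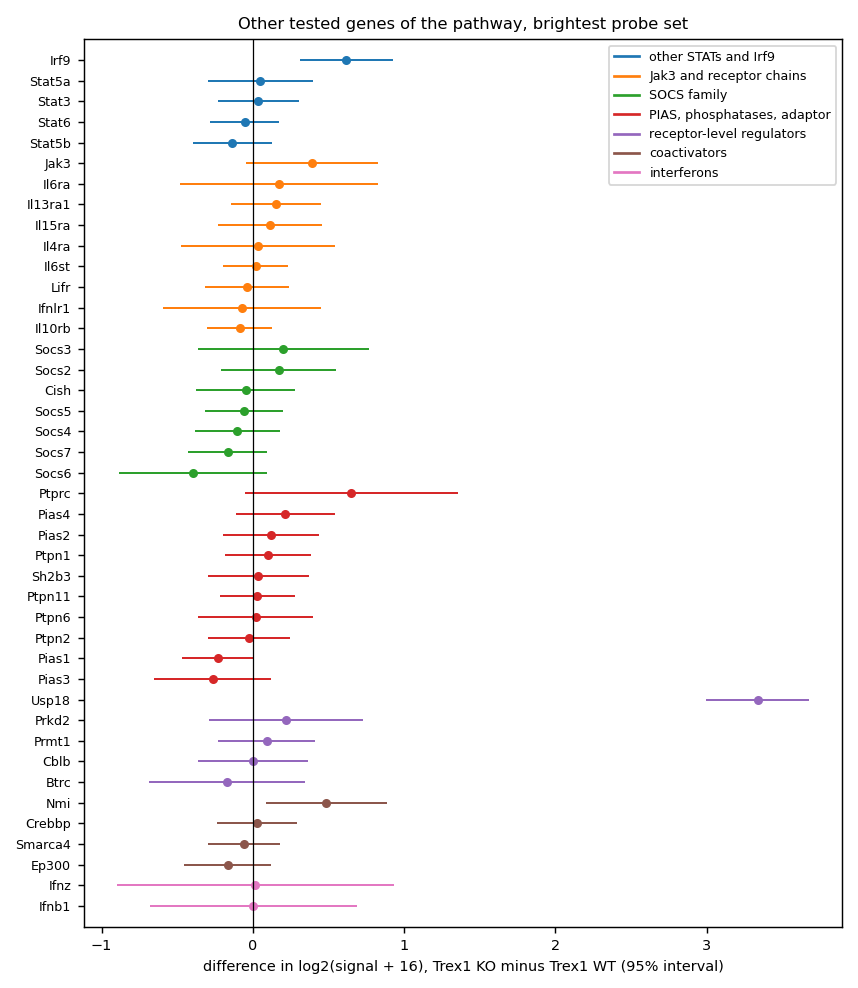
Difference in log2(signal + 16), Trex1 KO minus Trex1 WT, of the 42 other tested pathway genes by their brightest probe set, with 95% intervals from limma and colours by list. Usp18, at 3.34, is the 1 gene past the threshold, and the others lie between -0.40 for Socs6 and 0.65 for Ptprc, a phosphatase of leukocytes that is named after its value was seen.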

How the data were processed

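Biotin-labelled total RNA of heart ventricles was measured on 1-colour Affymetrix arrays, 1 per mouse, per the labels' protocols. The authors deposited 1 linear intensity per probe set and array, for which the submitters' processing notes name MAS5; the sources used here do not give its version or settings. The trimmed mean of each array was 500.0, so no further normalisation was applied. Signals ran from 0.109 to 58127.

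The fits used log2(signal + 16). A probe set was tested where its mean reached the 40th percentile (log2 value 6.13, signal 53.8), which left 27022 of 45037. Trex1 KO was compared with Trex1 WT with limma 3.58.1 in R 4.3.3 (lmFit, eBayes with an intensity trend, two-sided, Benjamini-Hochberg threshold 0.05), with 4 residual degrees of freedom, or 2 with the replicate block. Folds were taken after adding 16 to the signal and are therefore too small for dim probe sets. Precision is limited by the number of arrays. The sources used here give no batches.

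The letters A, B and C follow the littermate pairs of the series' design text. Deviations from group means correlated across probe sets at 0.151, 0.192 and 0.147 within pairs and at -0.161 to 0.0101 otherwise.

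Symbols came from the platform annotation (34945 probe sets with 1 symbol, 932 with several, 9160 with none), and 0 changed when updated through a RefSeq table of GRCm38.p6. The files name no build, so that table gave names and gene order. The brightest probe set with 1 symbol stood for a gene. All 9 genes matched the promoter table. The genes and lists were chosen with earlier results of these data known. Beyond the 9 genes, the text names Trex1 and Rag2 as checks, and pathway genes past the threshold or among the 2 smallest unadjusted p-values in each direction; other names are said to be chosen by value or stand for their list. Rag2 had signals of 91.3, 82.1 and 55.3 in Trex1 KO hearts and 62.3, 83.7 and 8.43 in Trex1 WT hearts (adjusted p = 0.955), and the position of its probes relative to the deletion is not given.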

Additional observations from a re-analysis of the deposited data

How the results depend on the processing

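The alternatives were the replicate block, pseudocounts of 1 and 64, no limit on dim probe sets or a limit at the 60th percentile, no intensity trend, quantile normalisation, the Actb ratio as a covariate, and leaving out each array or pair. Over 289 such fits of the 17 probe sets, 0 passed the threshold, with a lowest adjusted p of 0.128 (Stat2 1450403_at with the replicate block), and 23 changed sign. The counts of called genes among the 9, 0 and 0, and among the other pathway genes, 1 and 0, held in every fit. The Actb ratio did not overlap between the genotypes, so the fit with it separates its part from that of genotype only poorly. Adding the Actb ratio to the fit turned the log2 difference to -0.51 for Ifnar1 1442222_at, 0.22 for Ifnar2 1427691_a_at, 0.27 for Ifngr1, -0.16 for Ifngr2 1423557_at, -0.17 for Jak1 1433805_at and -0.093 for Jak1 1433804_at; with no change of sign, it moved Ifnar1 1449026_at to -0.41, Ifnar2 1451462_a_at to 0.39, Ifngr2 1423558_at to -0.70 and Jak2 1421066_at to 0.21. Leaving out arrays gave ranges across 0 of -0.26 to 0.080 for Ifnar1 1449026_at, -0.11 to 0.28 for Ifnar1 1442222_at, -0.044 to 0.17 for Ifnar2 1451462_a_at, -0.37 to 0.030 for Ifnar2 1427691_a_at, -0.11 to 0.11 for Ifngr1, -0.14 to 0.017 for Jak1 1433803_at, -0.0084 to 0.13 for Jak2 1421066_at and -0.043 to 0.15 for Tyk2 1417306_at. The ranges on one side of 0 were -0.60 to -0.14 for Ifnar2 1440169_x_at, 0.023 to 0.20 for Ifngr2 1423557_at, -0.63 to -0.048 for Ifngr2 1423558_at, 0.016 to 0.20 for Jak1 1433805_at, 0.23 to 0.58 for Jak1 1433804_at, 0.063 to 0.11 for Jak2 1421065_at and 0.20 to 0.43 for Tyk2 1432576_at. Stat2 stayed positive in every fit, at 0.22 to 1.0 with 1450403_at and 0.37 to 0.83 with 1421911_at. Over all probe sets, 59 higher and 7 lower calls became 105 and 16 with the replicate block, 24 and 4 without the trend, 8 and 1 with the Actb covariate, and 23 to 85 and 0 to 12 on leaving out arrays; the cause was not tested. The single arrays whose absence moved these counts by over 1.5 times were Trex1 KO B (33 higher), Trex1 KO C (37 higher), Trex1 KO A (3 lower) and Trex1 WT A (4 lower). Where an arm was left with 2 arrays, the spread was pooled over both genotypes. Socs1 and most interferon genes were too dim for a small difference or a fall to be read.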
